A study of Rattus norvegicus with 17 samples.

Results

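The repressor and output limbs of the circadian clock were read in rat skin as 10 genes: Per1, Per2 and Per3 (period genes), Cry1 and Cry2 (cryptochromes), Nr1d1 and Nr1d2 (REV-ERB alpha and beta), Dbp and Tef (PAR bZIP transcription factors) and Ciart, a transcriptional repressor of the clock. They were chosen by name, through the RefSeq transcript that each array probe was designed against. That rule found 14 of 30367 probes, 3 each for Per3 and Dbp and 1 for each other gene. Of these, 13 were among the 20710 probes kept because they were well above background on at least 8 arrays. The remaining Per3 probe was well above background on only 3 arrays. The 10 genes are part of the 11167 named genes measured, and the probe read for each was well above background on all 17 arrays.

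The exposed group had 9 arrays, from skin explants of rats given 94 GHz fields for 3 h a day, 3 days a week, over 5.5 months. The sham group had 8 arrays, from rats that went through sham exposure on the same schedule. All were male CD hairless rats labelled 2 to 3 months old. As exposure lasted 5.5 months, that label cannot be their age at its end. The rats were housed in pairs at a fixed temperature with lights on from 6 h to 18 h, a cycle of 12 h light and 12 h dark. The study's design text counts 6 exposed and 8 sham animals. By those counts some of the 9 exposed arrays share an animal, and which ones could not be worked out. Each p-value for a group difference is set by how much arrays of a group differ, which may in part be technical. All p-values, those of the correlations included, treat the 17 arrays as independent, so shared animals could make them too small. The hour at which the animals were killed is not given in the sources used here, nor is the hour of exposure. A whole-skin explant mixes cell types, and in it fewer cells of a type and less RNA per cell cannot be told apart.

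In the mammalian clock, the activators BMAL1 and CLOCK (or NPAS2) bind E-box sites in DNA and switch on Per and Cry genes, whose proteins return to block the activators. They also switch on Nr1d1 and Nr1d2, whose REV-ERB proteins repress Bmal1 from sites shared with the ROR activators, and Dbp and Tef, which act on D-box sites that the repressor NFIL3 also binds. In rodent tissues, skin included, these transcripts rise and fall over the day, each with its own hour of peak, and their relative levels are read as a marker of clock phase.

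RefSeq (build GRCr8) holds promoter windows, from 250 bases before to 50 bases after a gene's start, for 9 of the 10 genes, with 2 windows for Nr1d1; Cry1 had no entry. The windows with an exact E-box, from Nr1d1, Tef and Ciart, and the window with a D-box, from Per2, are printed here because these sites are the common inputs of the pathway. Capitals mark the E-box CACGTG, its variant CACGTT and the D-box TTATGTAA. All 4 are written 5' to 3' on the gene's strand. The Nr1d1 window lies at chr10:84229405-84229704 on the minus strand, the Tef window at chr7:115206577-115206876 on the plus strand, the Ciart window at chr2:186112197-186112496 on the minus strand and the Per2 window at chr9:99496944-99497243 on the minus strand.
Nr1d1: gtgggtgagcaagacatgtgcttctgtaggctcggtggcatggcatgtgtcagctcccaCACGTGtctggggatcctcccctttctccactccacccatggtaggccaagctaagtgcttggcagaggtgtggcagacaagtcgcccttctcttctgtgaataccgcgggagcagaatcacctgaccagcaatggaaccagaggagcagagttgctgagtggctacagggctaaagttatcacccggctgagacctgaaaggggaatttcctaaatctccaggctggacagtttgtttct
Tef: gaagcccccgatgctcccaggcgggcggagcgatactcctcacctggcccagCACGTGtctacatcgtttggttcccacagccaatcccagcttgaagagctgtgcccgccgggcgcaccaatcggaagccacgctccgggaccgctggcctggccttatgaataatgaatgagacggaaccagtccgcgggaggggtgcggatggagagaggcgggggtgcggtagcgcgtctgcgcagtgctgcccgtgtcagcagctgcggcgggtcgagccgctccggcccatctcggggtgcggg
Ciart: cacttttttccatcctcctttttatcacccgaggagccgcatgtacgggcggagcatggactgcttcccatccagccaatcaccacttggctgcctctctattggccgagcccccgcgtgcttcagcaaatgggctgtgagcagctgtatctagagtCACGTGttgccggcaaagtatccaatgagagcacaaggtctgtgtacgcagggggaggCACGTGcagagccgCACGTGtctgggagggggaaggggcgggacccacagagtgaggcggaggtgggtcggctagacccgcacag
Per2: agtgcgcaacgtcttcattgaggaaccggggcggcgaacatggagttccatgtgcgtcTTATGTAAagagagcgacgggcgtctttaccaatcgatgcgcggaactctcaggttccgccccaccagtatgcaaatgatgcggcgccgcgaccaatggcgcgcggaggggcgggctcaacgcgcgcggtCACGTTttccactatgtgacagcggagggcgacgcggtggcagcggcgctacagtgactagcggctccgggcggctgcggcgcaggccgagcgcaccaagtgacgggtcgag

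Ciart held the E-box CACGTG at 3 positions, -93, -35 and -21 from the annotated start, while Nr1d1 held it at -191 and Tef at -198. Per2 held the variant CACGTT at -62 and the D-box TTATGTAA at -192. The variant also lay, on the opposite strand, in the other Nr1d1 window at -174 and in the Cry2 window at -212. Nr1d2 had none of these, but held the receptor core sequence AGGTCA, read by REV-ERB and ROR proteins, at -187. The windows of Per1, Per3 and Dbp held none of the motifs searched on either strand. Of 33469 promoter windows in the table, 6.42% held CACGTG, 4.83% held CACGTT, 0.893% held TTATGTAA, 2.24% held the looser TTANGTAA that includes it, 16.2% held AGGTCA and 1.83% held the cAMP response element TGACGTCA. These matches describe letters within a short window and were not tied to any measurement.

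Exposed and sham skin were compared first, and no gene of the 10 passed. Each level below is the log2 of the array's processed signal minus the log2 of that array's 75th percentile, so a level of 0 is the 75th percentile. Levels of different genes come from different probes and were not set against each other. limma's moderated test, with Benjamini-Hochberg adjustment over 20710 probes, called 0 probes and thus 0 of the 10 genes, with a background of 0% called. At an unadjusted p under 0.05 it again picked 0 of the 10, beside 942 or 4.55% of all probes (121 or 0.584% higher and 821 or 3.96% lower in exposed skin). Of the 10 differences 5 were above 0 and 5 below, with a median of -0.0072 beside -0.025 over all probes.

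Among the period genes, which encode the core of the repressor complex, Per1 lay between -5.52 and -4.78 with a median of -5.16 in exposed skin, against -5.36 to -4.55 with a median of -4.89 in sham skin. The groups overlapped, and exposed minus sham was -0.14 (95% interval -0.40 to 0.11, limma adjusted p = 0.982). Its processed signal was 34.8 to 51.5 in exposed and 27.9 to 57.3 in sham arrays, and the spots of its probe had a median SD of 0.17 within an array, the largest among the probes read that had more than 1 spot. Per2 ranged from -4.44 to -2.91 with a median of -3.50 in exposed skin, against -4.32 to -3.34 with a median of -3.88 in sham skin. Exposed replicate 4 was the highest Per2 array and exposed replicate 2 the lowest, so the exposed values enclosed all the sham ones. The Per2 difference was 0.13 (-0.28 to 0.54, adjusted p = 0.982). Per3 ranged from -3.40 to -3.00 with a median of -3.25 in exposed skin, against -3.33 to -2.89 with a median of -3.13 in sham skin. Its groups overlapped, with a difference of -0.07 (-0.22 to 0.08), and its other kept probe gave 0.02.

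The cryptochromes encode the partners of the period proteins. Cry1 ran from -1.59 to -0.83 with a median of -1.13 in exposed skin, against -1.41 to -1.03 with a median of -1.22 in sham skin, a difference of 0.03 (-0.18 to 0.24). All sham values of Cry1 lay inside the exposed range. Cry2 ran from -3.79 to -3.49 with a median of -3.59 in exposed skin, against -3.69 to -3.23 with a median of -3.52 in sham skin. The groups overlapped, with exposed minus sham at -0.11 (-0.24 to 0.02, unadjusted p = 0.0855, adjusted p = 0.982 by limma), and 2 of 9 exposed arrays were above the sham mean.

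The REV-ERB genes, which encode heme-binding nuclear receptors that repress transcription, covered wide ranges in both groups. Nr1d1 ran from -3.61 in exposed replicate 3 to -1.57 in exposed replicate 4 with a median of -2.97. In sham skin it ran from -3.79 in replicate 1 to -1.59 in replicate 5 with a median of -2.59. The ranges nearly coincided, and the difference was -0.02 with an interval from -0.68 to 0.64. That interval spans ratios of exposed to sham from 0.625 to 1.56, so differences within it were not excluded. It is not a limit of detection, because a call also had to pass the adjustment over 20710 probes. Nr1d2 ran from -5.59 to -4.36 with a median of -4.93 in exposed skin, against -5.17 to -4.51 with a median of -4.80 in sham skin. Exposed replicates 3 and 4 were again the lowest and the highest, and the sham values lay within the exposed range. The Nr1d2 difference was -0.14 (-0.49 to 0.22, adjusted p = 0.982).

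Dbp, a transcription factor of metabolic output genes, ran from 0.62 to 2.04 with a median of 1.13 in exposed skin, against 0.58 to 1.44 with a median of 1.23 in sham skin. Exposed replicate 4 stood above every other array and sham replicate 1 was the lowest. The Dbp difference was 0.00 (-0.34 to 0.34), and its other 2 probes each gave 0.05. Tef, its close relative, ran from -0.58 to 0.50 with a median of -0.23 in exposed skin, against -0.31 to 0.01 with a median of -0.21 in sham skin. The exposed arrays of Tef enclosed all the sham ones, with a difference of 0.06 (-0.19 to 0.30). Ciart, which represses transcription by BMAL1 and CLOCK, ran from -2.77 to -2.29 with a median of -2.43 in exposed skin, against -3.03 to -2.36 with a median of -2.77 in sham skin. It had the largest difference of the 10 genes, 0.22 (-0.00087 to 0.44) or 1.16-fold, and 8 of 9 exposed arrays were above the sham mean. The groups still overlapped, and the unadjusted p was 0.0508 with an adjusted p of 0.982 by limma.

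**Figure D1:**
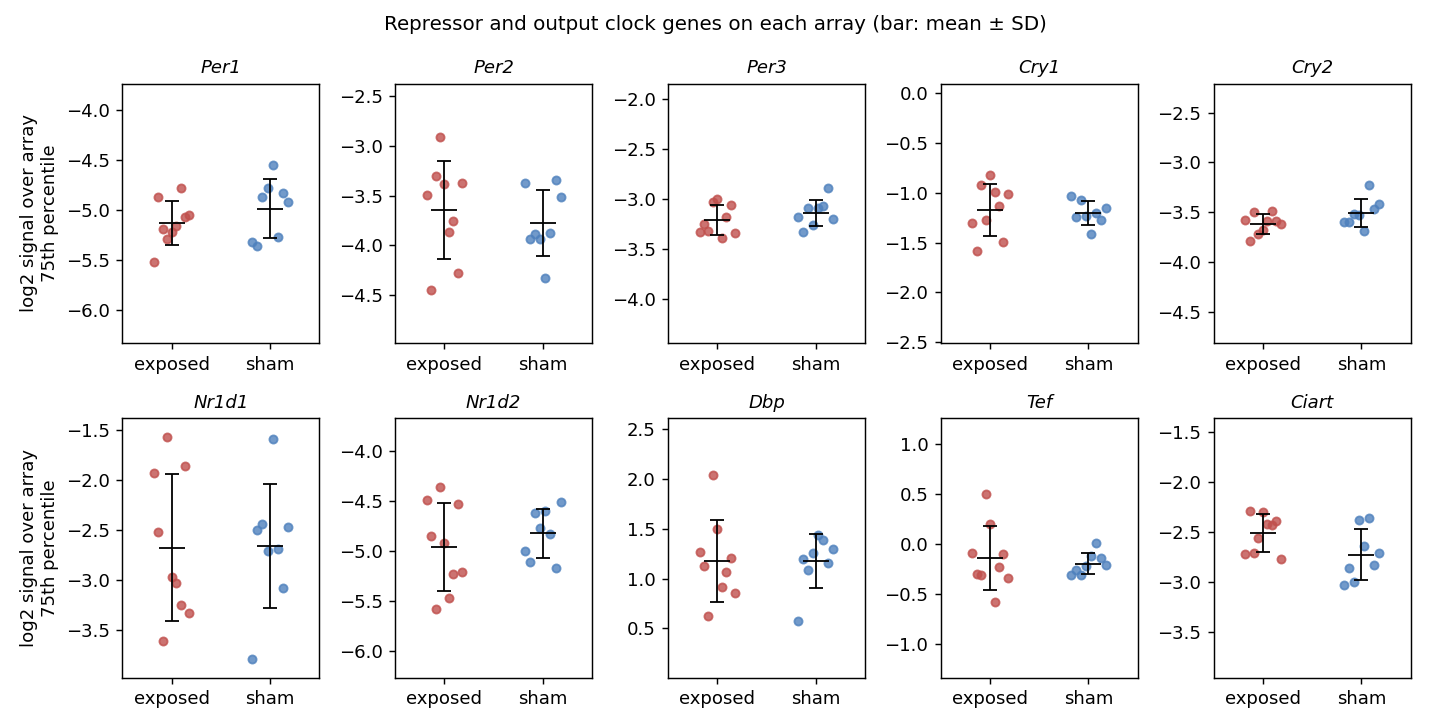
Level of each of the 10 clock genes by array, as log2 signal relative to the array's 75th percentile, with 9 exposed arrays left of 8 sham arrays; points are arrays and bars are group means with SD. The groups overlap for all 10 genes, and Nr1d1 runs from -3.61 to -1.57 in exposed skin and from -3.79 to -1.59 in sham skin.

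**Figure D2:**
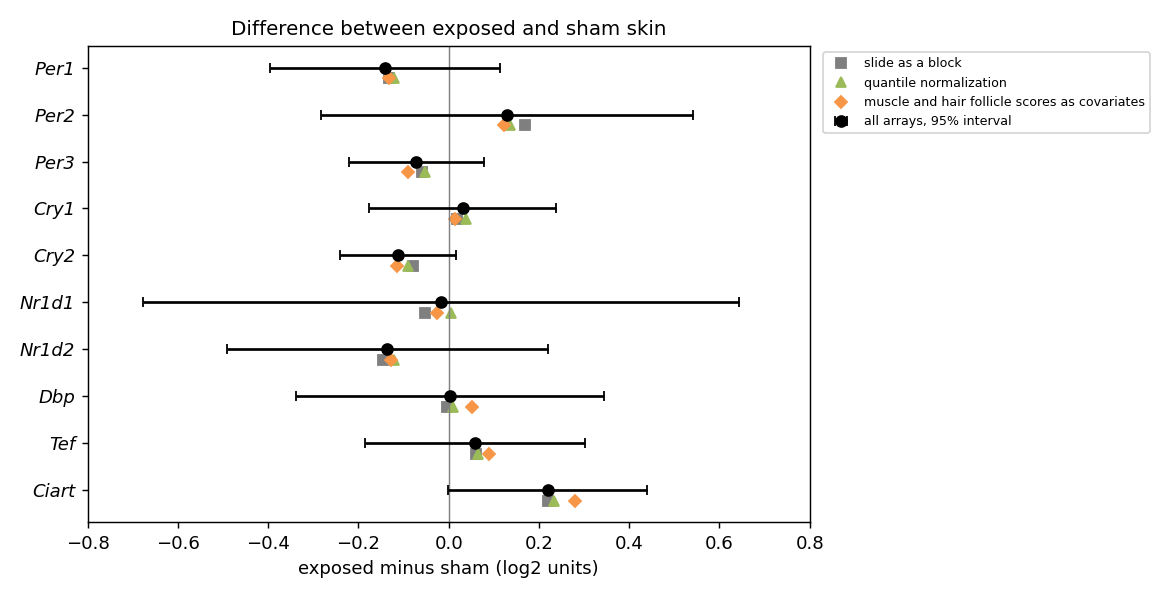
Exposed minus sham difference of each gene on the log2 scale, with black points and 95% intervals from limma over 17 arrays and coloured symbols for 3 alternative fits. Every interval includes 0, and that of Ciart reaches from -0.00087 to 0.44.

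The arrays lay on 4 slides, which held 3 exposed and 2 sham, 4 and 2, 1 and 1, and 1 and 3 arrays. Between slides, 0 of the 10 genes passed an unadjusted p of 0.05 by limma, with a background of 8.91% of all probes, and 0 probes passed after adjustment. Within slides, 0 of the 10 genes kept the same sign on all 4. Ciart, exposed minus sham, had 0.37, 0.27 and 0.25 on slides 1, 2 and 3, and -0.14 on slide 4. Nr1d1 had differences of 0.46, -0.13, -0.27 and -0.59 on slides 1 to 4, and Dbp had 0.12, 0.21, -0.23 and -0.42. Per1 had 0.15 on slide 1, -0.29 on slide 2, -0.52 on slide 3 and -0.04 on slide 4. On slide 4, with its single exposed array, exposed replicate 9, 8 of the 10 genes had a difference below 0, against 4 of 10 on each other slide. Over all kept probes the median difference was also lowest within slide 4, at -0.048, against -0.0078 within slide 1 and -0.032 within slide 2. The share of all probes below 0 on each slide was not counted, so the count is not read as a result about the clock genes.

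The 10 genes differed in how much they varied between explants. From the lowest to the highest of 17 arrays, Nr1d1 covered 4.68-fold, Per2 2.90-fold, Dbp 2.75-fold, Nr1d2 2.35-fold and Tef 2.12-fold. Per1 covered 1.96-fold, Cry1 1.70-fold, Ciart 1.68-fold, Cry2 1.47-fold and Per3 1.42-fold. With group means removed, the SD of Nr1d1 was 0.69, at the 95.6th percentile of all kept probes and at the 96.7th among the 1000 probes nearest to it in mean level. Dbp, with an SD of 0.35, stood at the 92.9th percentile of probes of like level, Tef at the 82.1st and Per2 at the 80.7th. Nr1d2 stood at 61.8, Per1 at 24.7, Per3 at 15.1 and Cry2 at 3.1 by the same measure. Normexp background correction was run with an offset of 50 added to each signal before the log. With it the SD of Per2 was 0.25 in place of 0.42 and that of Nr1d2 0.20 in place of 0.37. Such an offset narrows log2 differences between low signals, and how far it lowered these SDs was not tested. The spots of the Nr1d1 probe varied by a median SD of 0.062 within an array and those of Dbp by 0.020, far below their spread between arrays. For other genes the 2 were closer. The spot SD was 0.11 for Cry2, 0.17 for Per1 and 0.078 for Per3, beside SDs between arrays of 0.12, 0.26 and 0.14 with group means removed.

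The spread itself was compared between the groups with limma on absolute deviations from the group mean. In 7 of the 10 genes the SD was larger in exposed skin, but the share of all probes for which this holds was not counted. Exposed replicate 4 was the highest exposed array in Per2, Nr1d1, Nr1d2, Dbp and Tef, so these genes are not separate observations. After adjustment 0 of the 10 passed, with 0.00483% of all probes called. At an unadjusted p under 0.05, Cry1 and Tef were picked, which is 2 of the 10 genes beside 4.94% of all probes. The SD of Cry1 was 0.26 in exposed and 0.12 in sham skin, and that of Tef was 0.32 in exposed and 0.11 in sham skin. limma's unadjusted p was 0.0186 for Cry1 and 0.0466 for Tef, and the adjusted p was 0.853 for each. With each array left out in turn, the unadjusted p was not under 0.05 in 11 of 17 cases for Tef (up to 0.143, without exposed replicate 4) and in 2 of 17 for Cry1 (0.0630 without exposed replicate 2 and 0.0643 without exposed replicate 8). With quantile normalization limma's p for Tef was 0.0813.

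**Figure D3:**
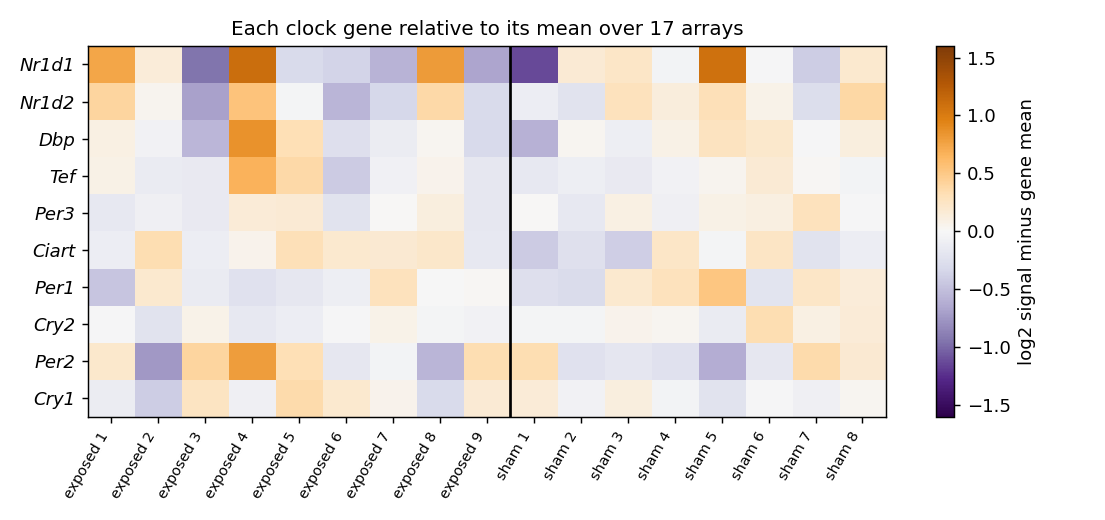
Level of each gene on each array minus its mean over 17 arrays, in log2 units, with exposed arrays left of the line and sham arrays right of it. Exposed replicate 4 is above the mean in Nr1d1, Nr1d2, Dbp, Tef and Per2, while exposed replicate 3 and sham replicate 1 are below it in Nr1d1 and Dbp.

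Of the 6 pairs among Nr1d1, Nr1d2, Dbp and Tef, 4 were positively correlated from explant to explant past the test; Nr1d1 with Tef and Nr1d2 with Tef did not pass. All 45 pairs of the 10 genes were correlated over 17 arrays, with a two-sided permutation test of 100000 resamples and Benjamini-Hochberg adjustment over the 45. By Pearson's r 6 pairs passed, 5 positive and 1 negative, and 5 of the 6 also passed by Spearman's rho. Of the pairs 27 had an r above 0 and 18 below, with a median of 0.07. Of all pairs of 1 clock gene and 1 probe outside the list, 2.58% had an r at least as far from 0 as the weakest of the 6, 0.62.

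Dbp and Tef gave r = 0.84 and rho = 0.90 over 17 arrays, with an adjusted permutation p of 0.0024 for r. The r was 0.91 in exposed and 0.68 in sham skin. It was 0.74 without exposed replicate 4 and sham replicate 1, the arrays farthest from the Dbp median, and 0.97 on slide 2, the only slide with 6 arrays. Among 20691 probes outside its own, no probe had a higher r with Dbp than that of Tef. Nr1d1 and Nr1d2 gave r = 0.81 and rho = 0.86, with an adjusted permutation p of 0.0024. Their r was 0.95 in exposed and 0.59 in sham skin, 0.85 without the 2 arrays farthest from the Nr1d1 median and 0.87 on slide 2. Nr1d1 ranked 1 of 20693 probes by r with Nr1d2, and Nr1d2 ranked 3 by r with Nr1d1.

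Both REV-ERB genes also went with Dbp. Nr1d1 and Dbp gave r = 0.78 and rho = 0.73 (adjusted permutation p = 0.0024 for r), with 0.76 in exposed and 0.83 in sham skin, 0.64 without the 2 farthest arrays and 0.80 on slide 2. Nr1d2 and Dbp gave r = 0.69 and rho = 0.72 (adjusted permutation p = 0.0172), with 0.81 in exposed and 0.41 in sham skin, 0.59 without the 2 farthest arrays and 0.76 on slide 2. Nr1d2 and Tef, at r = 0.58, did not pass (adjusted permutation p = 0.0709), with 0.73 in exposed and 0.05 in sham skin. Nr1d1 and Tef, at r = 0.51, did not pass either (adjusted permutation p = 0.158), and their r was 0.28 without the 2 farthest arrays. The differences between the groups in these r values were not tested.

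Cry1 ran against Nr1d1, the gene of a receptor known to repress Cry1. Their r was -0.67 and rho -0.66 over 17 arrays (adjusted permutation p = 0.0332 for r). It was -0.70 in exposed and -0.69 in sham skin, -0.80 without the 2 arrays farthest from the Cry1 median and -0.57 on slide 2. Cry1 and Per2 gave r = 0.59, which did not pass (adjusted permutation p = 0.0709). The sixth pair was Per3 and Tef, at r = 0.62 and rho = 0.63 (adjusted permutation p = 0.0436 for r and 0.051 for rho), with 0.82 in exposed and 0.43 in sham skin, 0.64 without the 2 farthest arrays and 0.82 on slide 2. That pair rests on a Per3 probe which had r = 0.34 with the other kept Per3 probe, while the 3 Dbp probes had r of 0.97 to 0.99 with each other. No pair that included Per1, Cry2 or Ciart passed.

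With slide means removed the r of the 6 pairs was 0.84 for Dbp with Tef, 0.79 for Nr1d1 with Nr1d2, 0.86 for Nr1d1 with Dbp, 0.70 for Nr1d2 with Dbp, -0.64 for Cry1 with Nr1d1 and 0.61 for Per3 with Tef. Leaving out each array in turn moved Dbp with Tef between 0.70 and 0.87, and Nr1d1 with Nr1d2 between 0.78 and 0.87. The lowest of these came without exposed replicate 4 in both pairs, and that array was the highest in Nr1d1, Nr1d2, Dbp and Tef. Slides 1, 3 and 4 held fewer than 6 arrays, and no r is given within them.

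**Figure D4:**
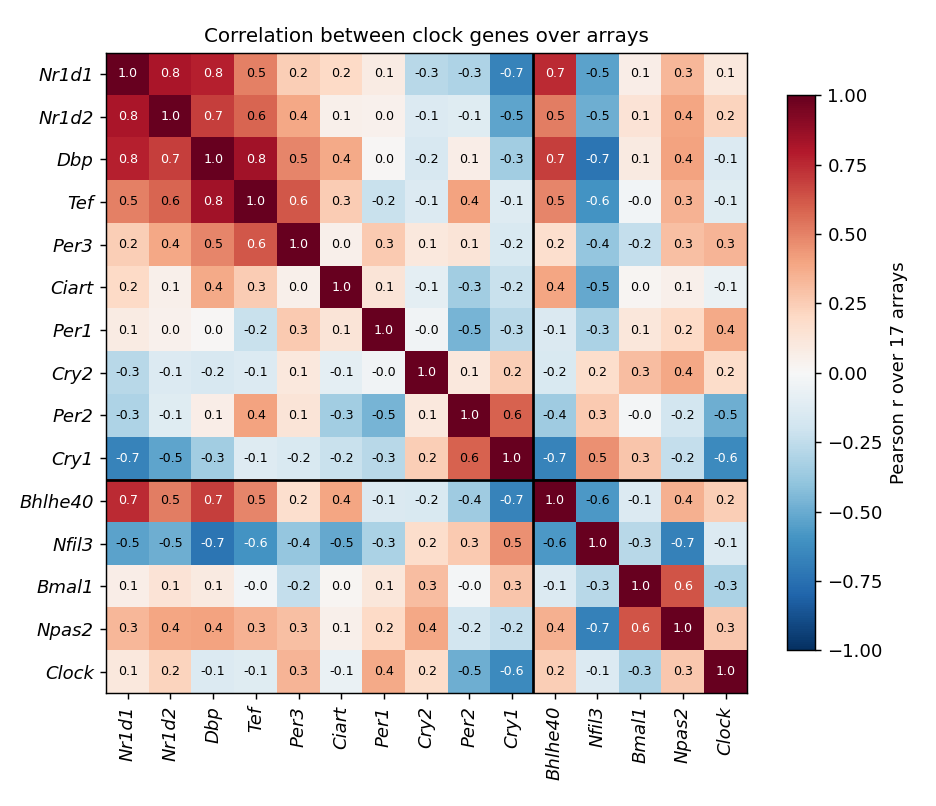
Pearson r over 17 arrays between the 10 clock genes and with other clock genes, on a colour scale from -1 to 1. The values of Nr1d1, Nr1d2, Dbp and Tef with each other run from 0.51 to 0.84, and Cry1 has r = -0.67 with Nr1d1.

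**Figure D5:**
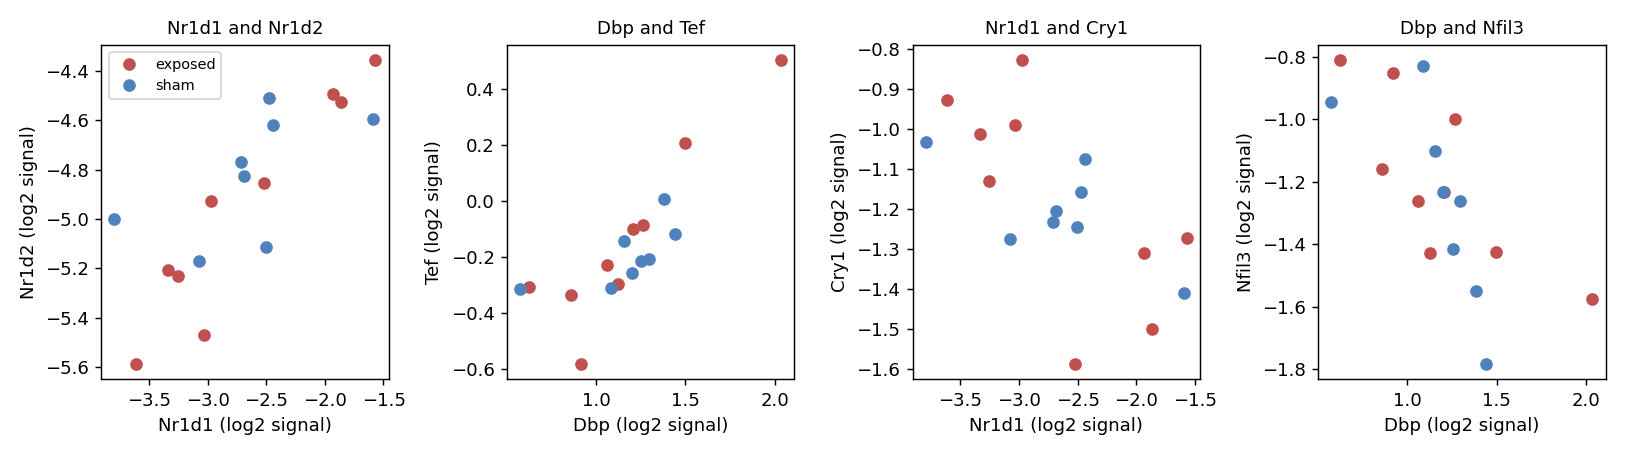
Level of 1 gene against that of another on the log2 scale relative to the array's 75th percentile, with 1 point per array, exposed in red and sham in blue. Nr1d1 with Nr1d2 and Dbp with Tef rise together (r = 0.81 and 0.84), while Cry1 falls with Nr1d1 (-0.67) and Nfil3 with Dbp (-0.73).

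Tissue content varied between the explants. The summed view is a score, the mean over a marker list of each gene's level minus its mean over the arrays. Of 12 hair follicle genes 9 were measured, 4 of them on all arrays, with scores from -3.49 to 2.37 in exposed and from -6.89 to 2.49 in sham skin. Of 12 skeletal muscle genes 9 were measured, 8 of them on all arrays, with scores from -3.15 to 5.42 in exposed and from -3.12 to 4.83 in sham skin. Of 8 adipocyte genes 6 were measured, 4 on all arrays, with scores from -0.16 to 0.49 in exposed and from -1.24 to 1.19 in sham skin. Genes of the epidermis and dermis were present. Well above background on 17 arrays were 4 of 7 basal keratinocyte genes, 5 of 8 genes of differentiated epidermis and all 6 fibroblast genes. The rest of both epidermal lists had no named probe. Of 30 pairs of a clock gene and a score 0 passed after adjustment by r or by rho. By r, 2 were at an unadjusted p under 0.05. Those were Dbp with the hair follicle score (r = -0.61, rho = -0.64, permutation p = 0.0142, adjusted 0.253) and Nr1d1 with it (r = -0.56, rho = -0.40, permutation p = 0.0168, adjusted 0.253). By rho, 3 were, all with the hair follicle score: Dbp (permutation p = 0.00676), Tef (rho = -0.61, r = -0.47, permutation p = 0.011) and Cry1 (rho = 0.58, r = 0.44, permutation p = 0.0164), each with an adjusted p of 0.164. The permutation p for rho of Nr1d1 was 0.112. With the muscle and hair follicle scores regressed out, the r was 0.78 for Dbp with Tef, 0.80 for Nr1d1 with Nr1d2, 0.65 for Nr1d1 with Dbp, 0.61 for Nr1d2 with Dbp, -0.57 for Cry1 with Nr1d1 and 0.54 for Per3 with Tef.

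No correlation with the activators that drive these genes passed the test. Of 30 pairs of a clock gene with Bmal1, Npas2 or Clock 0 passed after adjustment (2 at an unadjusted p under 0.05), and the smallest adjusted permutation p was 0.162, for Cry1 with Clock (r = -0.64, rho = -0.57). Nr1d1 had r = 0.07 with Bmal1, its direct target in the loop. The probes of these genes bear on that: both Bmal1 probes had r = 0.01 with each other, those of Npas2 -0.37 and those of Clock 0.55. The Bmal1 probe read also varied little, by 1.29-fold over 17 arrays, with an SD at the 17.1st percentile of probes of like level. The Npas2 probe read covered 1.76-fold, at the 61.6th percentile by that measure, and the Clock probe read 1.44-fold, at the 19.1st. Whether the variation of a probe limited these correlations was not tested.

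Among 14 other clock genes outside the activators, 6 of 140 pairs with the 10 genes passed by r after adjustment and 0 by rho, beside 0.834% of pairs of a clock gene and an outside probe with an r as far from 0 as the weakest, 0.70. Nfil3, the D-box repressor, was low where Dbp was high (r = -0.73, rho = -0.76, adjusted permutation p = 0.0327 for r and 0.0812 for rho). Its r with Dbp was -0.78 in exposed and -0.75 in sham skin, -0.73 without the 2 farthest arrays and -0.79 on slide 2. Bhlhe40, which competes for E-boxes, went with Nr1d1 (r = 0.74, adjusted permutation p = 0.0327) and with Dbp (r = 0.70, adjusted permutation p = 0.0362). Without the 2 farthest arrays these were 0.64 and 0.54, and on slide 2 they were 0.85 and 0.83. Wee1, a cell cycle kinase with E-box control, went with Cry1 (r = 0.75, adjusted permutation p = 0.0327) and Per2 (r = 0.71, adjusted permutation p = 0.0362). The Wee1 relations did not hold alike on slide 2, where r was -0.21 with Cry1 and 0.39 with Per2, while with slide means removed they were 0.62 and 0.60. Usp2, a deubiquitinase of clock proteins, went with Per1 (r = 0.72, adjusted permutation p = 0.0362), at 0.31 in exposed and 0.90 in sham skin, 0.56 without the 2 farthest arrays and 0.65 on slide 2.

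The other clock genes were also compared between exposed and sham skin, and none passed. Of 8 activators and loop genes 5 were measured, with 1 difference above 0, 4 below 0 and 0 called in either direction. Npas2 had a difference of -0.25 (unadjusted p = 0.0122, adjusted p = 0.982 by limma), but its other probe gave -0.01. Clock had a difference of -0.16 (unadjusted p = 0.0507 by limma), Bmal1 -0.05 and Nfil3 0.07. Of 8 kinases, ligase parts and proteases 6 were measured, with 1 difference above 0, 5 below 0 and 0 called, and Usp2 at -0.12. Of 8 further outputs and modifiers 6 were measured, with 4 above 0, 2 below 0 and 0 called, and Bhlhe40 at -0.01. Rora, Rorb, Fbxl21, Fbxw11, Hlf and Bhlhe41 were among those with no kept probe.

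A profile over the arrays was made as the mean of the centred levels of Per3, Nr1d1, Nr1d2, Dbp, Tef and Ciart, a set chosen with earlier results known. The levels were not scaled, so genes that varied more between arrays weighed more in it, which by itself raises their r with it. With group means removed the SD was 0.69 for Nr1d1, 0.37 for Nr1d2, 0.35 for Dbp, 0.25 for Tef, 0.22 for Ciart and 0.14 for Per3. Dbp (r = 0.93), Nr1d1 (0.91), Nr1d2 (0.85) and Tef (0.78) followed the profile they are part of more closely than Per3 (0.49) and Ciart (0.38) did. The profile was highest in exposed replicate 4, at 0.56, and lowest in exposed replicate 3, at -0.43, with sham skin between -0.40 in replicate 1 and 0.29 in replicate 5. Exposed replicates 4 and 3 also had the lowest and the highest hair follicle score of their group, -3.49 and 2.37. Sham replicate 5 had the lowest of its group, -6.89, while sham replicate 1, at 1.46, was below the 2.49 of sham replicate 3. The muscle scores of these arrays also differed, at 5.25 and 1.55 in exposed replicates 4 and 3, and 2.17 and -2.90 in sham replicates 5 and 1. The relation of the profile to either score was not tested. The genes most like the profile, among 11152 compared over 17 arrays and given with no test, were Ndrg2 (r = 0.87), Art5 (0.83), Ugp2, Macrod1 and Fhit (each 0.80), Gpr146 (0.80), Dnajc4 (0.79) and Ypel5 (0.79). Ugp2 makes UDP-glucose for glycogen synthesis, Art5 is an ADP-ribosyltransferase and Macrod1 removes ADP-ribose. Among the most opposed were F10, coagulation factor X (-0.85), Slc22a2, an organic cation transporter (-0.81), and Fzd3, a Wnt receptor (-0.79). With the muscle and hair follicle scores regressed out, the r was 0.76 for Ndrg2 and -0.78 for F10.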

How the data were processed

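The 17 explants were measured on 1-colour Agilent arrays with a single array each. The authors obtained spot intensity on a linear scale with Agilent Feature Extraction 10.7.3.1, per the file headers, which also give background subtraction and spatial detrending within each array. The other columns used are quality flags per spot, deposited with the signals. The deposited value table gives log2 values of 14853 probes, each centred to a median of 0 over the arrays, and its scaling step between arrays is unknown. It holds 6 of the 10 genes and served as an alternative.

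Control spots and outlier spots were left out and the spots of a probe averaged. The values were log2 signal minus the log2 of the array's 75th percentile over spots. That percentile was a signal of 1077 to 1703, and 66.7% to 70.8% of probes were well above background on an array. No spot was saturated. The number of arrays limits the precision. Names and promoters came from RefSeq tables of GRCr8, while the array grid is annotated on rn4. Where a gene had more than 1 kept probe, the brightest on average was used. limma 3.58.1 in R 4.3.3 gave the tests and intervals, and its use was tested on simulated data. Slides were taken from the sample titles. The 10 genes, the other clock gene lists and the marker lists were chosen with earlier results of these data known. Pattern genes were the 8 highest and the 4 lowest by r with the profile of 6 genes; some genes that these rules name are not reported here. From the other lists 8 genes and the 2 of smallest p were named, and Wee1 was named after its values were seen. Correlations with the 14 other clock genes were added after seeing the data. Alternatives covered scaling, background, filter, slide, tissue scores, array weights, the value table and each array left out in turn.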

Additional observations from a re-analysis of the deposited data

Results flagged for a closer look

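In 32 sets of arrays, 1 per gene and group, the highest or lowest array was set against its nearest neighbour, and 2 stood apart; chance gives about 1 in 20. Dbp was lowest in sham replicate 1, at 0.576, with a gap of 0.51 to the next sham array, 0.591 of the sham range against a critical value of 0.526. Nr1d1 was also lowest of the sham arrays in that explant. Bmal1 was lowest in exposed replicate 2, at -0.714, with a gap of 0.15, 0.530 of the exposed range against a critical value of 0.493.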

How the results depend on the processing

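No probe passed after adjustment in any of the 29 alternatives run. The count of the 10 genes at an unadjusted p under 0.05 was 1 in place of 0 with median scaling, with probes well above background on all 17 arrays and with muscle and hair follicle scores as covariates (Ciart each time), and 1 with normexp (Cry2). It was 0 to 1 with an array left out; it was Ciart without exposed replicate 1, 3 or 9 or sham replicate 4 or 6, and Cry2 without sham replicate 5. None of the 10 differences was called, so a change of sign is a move across 0. Within slide 1 it was 0.1475 for Per1, -0.0899 for Per2, -0.136 for Cry1, 0.459 for Nr1d1 and 0.0775 for Nr1d2. Within slide 2 Per3 had 0.0246, and its other probe gave 0.0174. Within slide 4 it was -0.420 for Dbp, -0.222 for Tef and -0.135 for Ciart. Nr1d1 had 0.0050 with quantile normalization and 0.0048 in the value table. Dbp had -0.0040 with slide as a block and -0.0142 with array weights. With each array left out, the range was -0.0125 to 0.0827 for Cry1, -0.179 to 0.136 for Nr1d1, -0.105 to 0.0718 for Dbp, -0.0217 to 0.114 for Tef, 0.0369 (without exposed replicate 4) to 0.229 for Per2, -0.194 to -0.0781 (without sham replicate 5) for Per1, -0.212 to -0.0574 (without exposed replicate 3) for Nr1d2, -0.0994 to -0.0366 (without sham replicate 7) for Per3, -0.138 to -0.0722 (without sham replicate 6) for Cry2 and 0.176 to 0.272 for Ciart, and the spread difference of Cry2 ran from -0.0461 to 0.0018. The median r over the 45 pairs, 0.07, was 0.21 with normexp and -0.048 with slide means removed; the cause was not tested. Cry2 kept its sign in the 28 alternatives run, which leave out slide 3, where its difference between 1 exposed and 1 sham array was 0.0985. No paired analysis was possible because the replicate numbers follow accession order only. Processed signals were 27.9 to 57.3 for Per1 and 31.1 to 76.7 for Nr1d2. With normexp and its offset of 50 the SD was 0.20 for each, against 0.26 and 0.37 as reported. With normexp the SD was also 0.25 for Per2, against 0.42, 0.54 for Nr1d1, against 0.69, and 0.17 for Cry1, against 0.21.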
